A study of Mus musculus with 21 samples.

Results

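The step described here is the third day of embryoid body formation in the presence of ascorbic acid (vitamin C), taken as the 3 arrays at day 3 set against the 3 arrays at day 2, which are 6 of the 21 arrays of the series. All come from CGR8, a mouse embryonic stem cell line, and no genotype or genetic change is named for it in the labels. Cells were aggregated in hanging drops of 500 cells per 25 µL in a medium labelled 20% IMDM. The aggregates formed by day 2 were moved to a shaker, so the step from day 2 to day 3 also covers that change of culture. Both treated groups had 100 µM ascorbic acid. The control groups at the same days lacked it, and the undifferentiated cells at day 0 and the aggregates at day 5 serve only to place the levels. The submitters carried forward only cultures in which ascorbic acid had later raised the number of beating aggregates, so the arrays are a selected set of 1 line. Each array carried biotinylated cRNA made from 100 ng of total RNA on an Affymetrix mouse genome array.

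Embryoid bodies pass through a stage that resembles gastrulation, when epiblast-like cells turn on genes of the primitive streak, the structure through which mesoderm and endoderm arise. Nodal, Wnt, FGF and BMP signals drive this stage, T-box factors such as Eomes carry it out, and the factors of naive pluripotency are shut down around it. Ascorbic acid is a cofactor of iron-dependent dioxygenases, among them the TET enzymes that oxidise methylated cytosine and the prolyl hydroxylases of collagen, and it is widely used to raise cardiac yield from embryonic stem cells.

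The unit is the log2 of the array signal, on which 1 stands for a 2-fold change. A gene was called where limma's test over 18193 genes, fitted to all arrays, gave a Benjamini-Hochberg adjusted p under 0.05. The labels call the 3 samples of a group biological replicates without saying what was separate about them. The p-values therefore reflect no more than the spread between such samples. For each gene that spread was taken within groups and pooled over all 21 arrays of the 7 groups. In whole aggregates, a change in the number of cells of a type and a change in RNA per cell cannot be told apart.

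With ascorbic acid, 620 genes rose from day 2 to day 3 (3.41% of those tested) and 234 fell (1.29%), 854 or 4.69% in all. Of these, 184 rose and 99 fell by at least 1 on the log2 scale, which is 1.01% and 0.544% of the genes tested. The median over all genes was 0.00. The day 2 and day 3 arrays did not overlap for 617 of the genes that rose and for each of the 234 that fell, whereas 4447 genes (24.4%) had no overlap at all, called or not. The number of calls depended on single arrays: it was 217 without replicate 2 of day 3, 288 without replicate 3 of day 2, 368 without replicate 1 of day 3 and 559 without replicate 1 of day 2. It was 874 without replicate 3 of day 3. After a renewed quantile normalisation, 521 genes were higher and 323 lower, a split of 61.7% higher against 72.6% in the values as deposited.

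Replicate 3 of day 3 lay nearer to day 2 than its fellows did. On the first principal component of all arrays, which held 54.6% of the variance, the day 2 treated arrays were at -33.13, -33.44 and -40.54 and the day 3 treated arrays at -6.10, -2.28 and -18.93. The untreated day 3 arrays showed the same order, at -2.84, -2.19 and -18.35. The genes and list counts that moved most when this array was left out are given with and without it. A check of RNA quality, the signal of the 3′ probe set of Actb minus that of the 5′ one, gave 0.91, 1.08 and 0.91 at day 2 and 1.28, 1.00 and 1.04 at day 3, and these ranges overlapped.

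**Figure D1:**
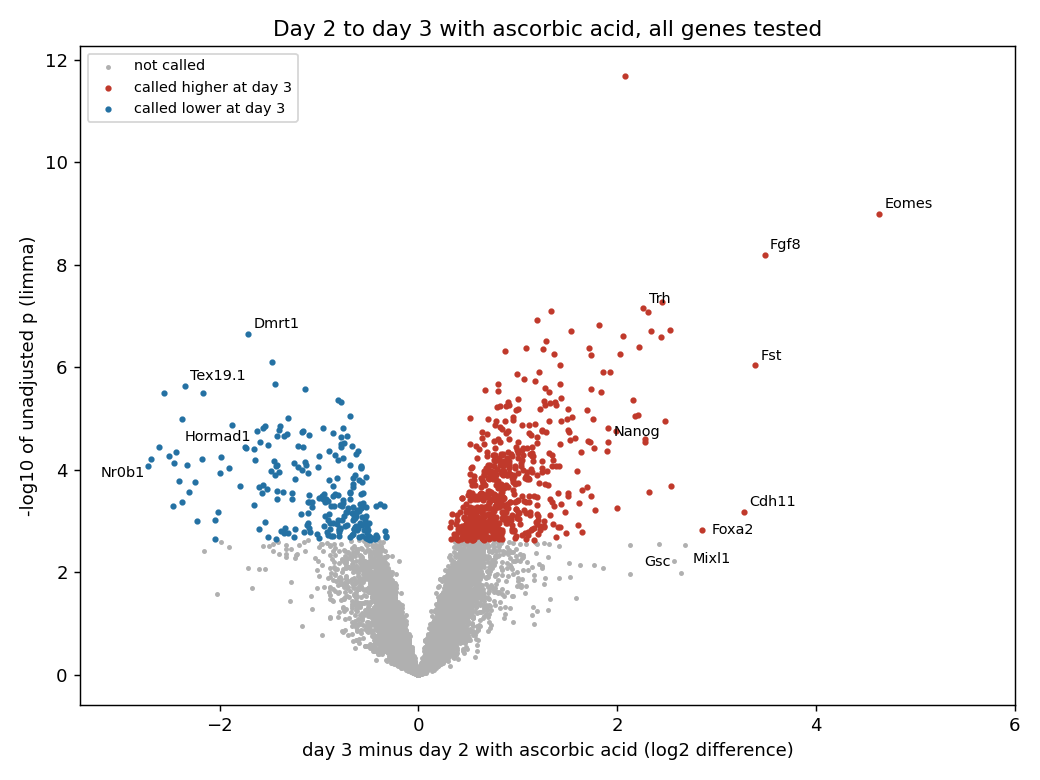
Each point is 1 of 18193 genes, with its log2 difference between day 3 and day 2 with ascorbic acid on the x axis and the -log10 of limma's unadjusted p on the y axis. The 620 genes called higher and 234 called lower are coloured, and Eomes lies farthest to the right at 4.64 while Mixl1 and Gsc lie below the calls.

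A minority of primitive streak genes were called higher at day 3, while the median of the list lay above that of all genes. Of 27 measured genes on a list of streak and nascent mesoderm genes, 7 rose (Eomes, Fgf8, Fst, Sp8, Rspo3, Wnt3 and Evx1) and 1 fell (Dll1), and the median difference over the list was 0.89, against 3.41% of all genes called higher and a median of 0.00. Without replicate 3 of day 3 the count was 14 higher and 1 lower, and without replicate 2 or 1 of day 3 or replicate 3 of day 2 it was 4 higher and 0 lower. The mean level of the list was 6.31, 6.21 and 6.13 on the day 2 arrays and 7.73, 7.87 and 6.61 on the day 3 arrays, so replicate 3 was the lowest of day 3 but still above each array of day 2.

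Eomes, the T-box factor that starts mesoderm and endoderm formation, read 7.56, 7.34 and 6.44 at day 2 and 12.27, 12.20 and 10.78 at day 3. The 2 groups were far apart, and the rise of 4.64 ± 0.43 (SE, n = 3 arrays a group, adjusted p = 9.14e-06) is a 24.9-fold change in signal. Fgf8, the fibroblast growth factor of the streak, went from 6.35, 6.04 and 5.53 to 9.71, 10.02 and 8.64, a rise of 3.48 ± 0.36 (adjusted p = 3.89e-05). Fst encodes follistatin, which binds and blocks activins. It read 8.24, 8.10 and 7.13 at day 2 and 11.57, 11.55 and 10.51 at day 3, a rise of 3.39 ± 0.48 (adjusted p = 0.000622). For these 3 genes replicate 3 was the lowest array of each day, with no overlap between days, and the call held when any 1 of the 6 arrays was left out.

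Another group of streak and node genes was high on replicates 1 and 2 of day 3 only. Mixl1, a homeobox gene of the streak, read 6.80, 6.66 and 6.73 at day 2 and 10.36, 10.84 and 7.04 at day 3. Replicate 3 stood just above the highest day 2 array, and the difference of 2.68 ± 0.79 was not called (adjusted p = 0.0572). When replicate 3 of day 3 was left out the difference was 3.87 (adjusted p = 0.00251). Gsc, the organiser gene goosecoid, went from 4.59, 4.40 and 4.50 to 7.70, 8.19 and 4.86, a difference of 2.42 ± 0.71 (adjusted p = 0.0563), or 3.45 without replicate 3 of day 3 (adjusted p = 0.00326). The Wnt target Sp5, named after its values were seen, had the same shape, with 6.09, 5.79 and 6.34 at day 2 and 9.82, 9.94 and 6.19 at day 3, and its groups overlapped.

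Foxa2, the forkhead factor of endoderm and node, was called, with 6.74, 6.60 and 6.38 at day 2 and 10.44, 10.54 and 7.31 at day 3, a rise of 2.86 ± 0.77 (adjusted p = 0.0378). Cdh11, a mesenchymal cadherin, went from 4.40, 4.12 and 3.75, near the floor of the array, to 8.12, 8.85 and 5.13 (3.28 ± 0.81, adjusted p = 0.0232), while its other probe set differed by 0.35. Both calls were lost when any 1 treated array other than replicate 3 of day 3 was left out, with adjusted p up to 0.239 for Foxa2 and 0.182 for Cdh11. The differences without that array were 3.92 and 4.40.

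Pdgfra and Mesp1, both genes of early mesoderm, did not pass the test. Pdgfra, a receptor of nascent mesoderm, read 5.13, 5.26 and 5.16 at day 2 and 6.60, 7.37 and 5.30 at day 3 (1.24 ± 0.42, adjusted p = 0.104). Mesp1, the factor of early cardiac mesoderm, read 6.98, 6.93 and 6.97 at day 2 and 8.05, 8.65 and 6.85 at day 3 (0.89 ± 0.36, adjusted p = 0.2), so its groups overlapped. Without replicate 3 of day 3 the differences were 1.80 (adjusted p = 0.009) and 1.39 (adjusted p = 0.0175).

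The low replicate was not peculiar to the treated cultures. In the untreated day 3 arrays Mixl1 read 10.93, 10.86 and 7.21, Gsc 8.59, 8.75 and 5.22, Foxa2 10.34, 10.61 and 6.90, and Cdh11 8.86, 8.85 and 5.07. In both arms replicate 3 was thus the low array, and what set it apart was not tested.

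**Figure D2:**
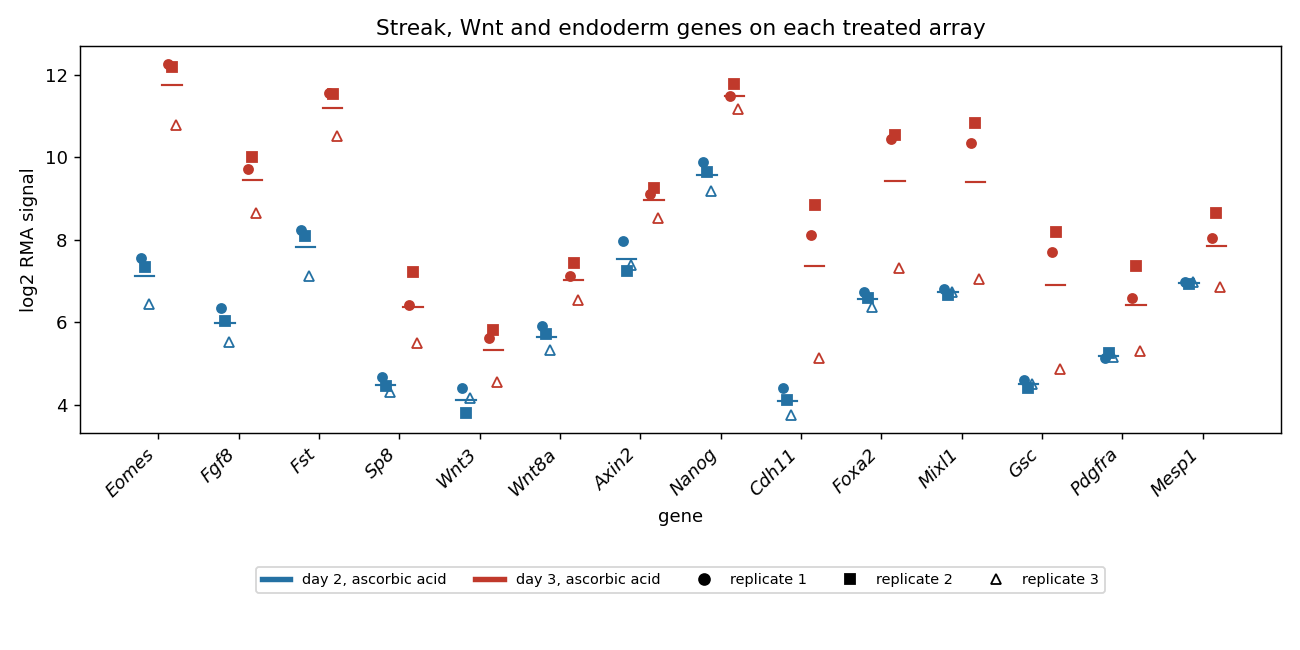
Log2 signal (y axis) of streak, early mesoderm, Wnt and endoderm genes, and of Nanog and Cdh11 (x axis), on each of the 6 treated arrays. Blue stands for day 2 and red for day 3, with a symbol for each replicate and bars at the group means. Eomes, Fgf8 and Fst were higher on all 3 day 3 arrays, whereas replicate 3 of day 3 stayed near day 2 for Mixl1 and Gsc.

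Among the lists of pathways that act at the streak, that of Wnt ligands, receptors and targets held the most calls. Of 30 genes measured, 8 rose and 0 fell, with a median of 0.33, against 3.41% of all genes called higher. That share, and the 1.29% of all genes called lower, also stand beside the list counts below. Wnt3, the ligand needed for streak formation, read 4.41, 3.79 and 4.17 at day 2, near the floor of the array. At day 3 Wnt3 read 5.63, 5.82 and 4.54, a rise of 1.21 ± 0.30 (adjusted p = 0.026). Its replicate 3 stood just above the day 2 arrays. Wnt8a rose by 1.39 ± 0.28 and Rspo3, a secreted enhancer of Wnt signals, by 1.43 ± 0.38. The other Rspo3 probe set differed by 0.14 and was not called. The receptor genes Fzd2, Lrp6 and Lgr5 rose by 0.84, 0.67 and 0.79.

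Axin2, a feedback inhibitor widely read as a Wnt target, went from 7.98, 7.24 and 7.40 to 9.11, 9.26 and 8.53, a rise of 1.43 ± 0.27 (adjusted p = 0.00414) that was called without any 1 array. The other Axin2 probe set differed by 0.46 and was not called. Wls, the carrier that brings Wnt proteins to the cell surface, was among the largest rises outside the list, from 5.63, 5.25 and 5.44 to 8.16, 8.59 and 7.18 (2.54 ± 0.32, adjusted p = 0.000303). Prickle1, a planar polarity gene, rose from 7.60, 7.65 and 6.91 to 9.92, 9.94 and 9.66 (2.45 ± 0.29, adjusted p = 0.000214), although 1 of its 3 probe sets was called. The Wnt count fell to 1 without replicate 3 of day 2 or replicate 2 of day 3, to 2 without replicate 2 of day 2 and to 3 without replicate 1 of day 3. Wnt3 had adjusted p = 0.187, Wnt8a 0.0657, Rspo3 0.228 and Fzd2 0.116 without replicate 2 of day 3.

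The Nodal and Activin list held both directions, with 5 of 24 higher, 2 lower and a median of 0.095. Of all genes 3.41% were called higher and 1.29% lower. Fst, the blocker of activins named above, had the largest rise of the list, at 3.39. The receptors Acvr2a and Acvr2b rose by 0.51 and 0.63, and the signal carriers Smad3 and Smad4 by 0.84 and 0.77. Other Smad3 probe sets differed by 0.15 and -0.10 and were not called. Lefty1, a secreted Nodal inhibitor, fell from 11.10, 10.59 and 10.90 to 9.52, 9.00 and 10.03 (-1.35 ± 0.37, adjusted p = 0.0413). Gdf3, a ligand related to Nodal, fell by 1.27 ± 0.30 (adjusted p = 0.0163). Nodal itself read 10.13, 10.07 and 9.77 at day 2 and 10.34, 10.10 and 10.49 at day 3, with overlapping groups (adjusted p = 0.512). Cer1 and Lefty2, further Nodal inhibitors, differed by 0.11 and -0.27 and were not called. The other Cer1 probe set differed by 1.19 and was not called either. Without replicate 2 of day 3 the list had 2 genes higher and 0 lower, and Lefty1 and Gdf3 had adjusted p = 0.25 and 0.127. With the loss of replicate 3 of day 2 the counts were the same, with adjusted p = 0.143 and 0.124, and without replicate 1 of either day, 3 genes were higher and 0 lower.

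Against 3.41% of all genes called higher, 5 of 23 BMP genes rose and 0 fell (median 0.23). These were the receptor Bmpr1a (0.53), the signal carriers Smad1 (0.95 ± 0.20) and Smad5 (0.77 ± 0.21), and the target genes Id1 and Id3. Id3 read 7.98, 7.88 and 6.91 at day 2 and 9.06, 9.45 and 9.34 at day 3 (1.69 ± 0.37, adjusted p = 0.0117), and unlike the streak genes its day 3 replicate 3 was level with the others. None of the 5 was called without replicate 3 of day 2 or without replicate 2 of day 3. Of 21 FGF genes 2 rose and 1 fell, against 3.41% and 1.29% of all genes. Beside Fgf8, Il17rd, which encodes a feedback inhibitor of FGF signalling, rose from 8.95, 8.85 and 8.20 to 10.22, 10.29 and 9.76 (1.42 ± 0.20, adjusted p = 0.000622). The other Il17rd probe set differed by 0.28 and was not called. The gene that fell was Fgf4. On the Notch list the ligand gene Jag1 rose by 1.47 ± 0.36 (adjusted p = 0.0232, 1 of its 3 probe sets) and the ligand gene Dll1 fell from 8.61, 8.22 and 8.45 to 7.09, 7.47 and 7.41 (-1.10 ± 0.26, adjusted p = 0.0174). Dll1 lost its call without replicate 1 or 3 of day 2 or any 1 day 3 array but replicate 3, and Jag1 without replicate 3 of day 2 or replicate 1 or 2 of day 3 (adjusted p up to 0.0932 and 0.148).

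Pluripotency genes did not move as a block. Of all genes 1.29% were called lower and 3.41% higher. On the naive list of 18 genes, 5 fell, 1 rose and the median was -0.37. The gene that rose was Nanog, a core pluripotency factor, with 9.89, 9.65 and 9.19 at day 2 and 11.48, 11.79 and 11.18 at day 3 (1.91 ± 0.35, adjusted p = 0.00398). Its groups lay well apart and the call held without any 1 array. Its mean was 11.48 in undifferentiated cells and 5.90 at day 5 with ascorbic acid, so day 2 was a low point between higher levels. Pou5f1, which encodes Oct4, read 11.58, 11.66 and 11.36 at day 2 and 11.44, 11.46 and 11.53 at day 3, with overlapping groups (-0.06 ± 0.25, adjusted p = 0.957). Sox2 read 11.32, 11.47 and 11.28 and then 10.87, 10.76 and 11.09, a difference that was not called (adjusted p = 0.711).

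The naive genes that fell were Nr0b1, Fgf4, Gbx2, Zfp42 and Dppa5a. Gbx2, a homeobox gene also on the neuroectoderm list, read 6.21, 6.70 and 6.57 and then 4.83, 4.96 and 5.40 (-1.43 ± 0.41, adjusted p = 0.0489), a call that was lost without any 1 of the 6 arrays (up to 0.187), after renewed normalisation or centring, and without the intensity trend. Nr0b1, which encodes the nuclear receptor Dax1, went from 8.80, 8.85 and 9.41 to 6.64, 5.82 and 6.53 (-2.69 ± 0.53, adjusted p = 0.00578). Fgf4 went from 9.93, 10.14 and 10.04 to 7.06, 6.80 and 8.88 (-2.46 ± 0.49, adjusted p = 0.00646), with replicate 3 of day 3 the nearest to day 2. Other Fgf4 probe sets differed by -2.32, which was called, and by -0.52 and -0.54, which were not. Zfp42, the marker also called Rex1, fell by 1.12 and Dppa5a by 0.65. The chromatin-associated pair Dppa2 and Dppa4 belonged to the general list of 14 genes, of which 3 fell and 1 rose. Dppa2 read 10.60, 10.80 and 10.72 at day 2 and 8.04, 7.90 and 9.66 at day 3 (-2.17 ± 0.43, adjusted p = 0.00578), and Dppa4 11.36, 11.11 and 11.64 and then 9.46, 9.38 and 10.56 (-1.57 ± 0.36, adjusted p = 0.0144). Without replicate 2 of day 3 none of the naive genes was called lower, and Nr0b1, Fgf4 and Dppa2 had adjusted p = 0.052, 0.0635 and 0.0593. The naive genes called lower numbered 2 without replicate 1 of day 3 or any 1 day 2 array, and 3 without replicate 3 of day 3. Dppa4 was also lost without replicate 3 of day 2 (adjusted p = 0.086) or replicate 1 of day 3 (adjusted p = 0.0802).

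Of 17 genes of the primed epiblast, the later pluripotent state, 3 rose and 1 fell, against 3.41% and 1.29% of all genes. Nkx1-2 read 5.89, 5.49 and 5.18 at day 2 and 7.43, 7.25 and 7.34 at day 3 (1.82 ± 0.23, adjusted p = 0.000303), though its other probe sets differed by -0.15 and -0.03. Sox11, a neural and epiblast factor, rose by 1.13 ± 0.22 and was called on each of its 6 probe sets, with adjusted p = 0.0538 when replicate 2 of day 3 was left out. Fgf5, the classic marker of the primed state, read 9.15, 9.63 and 8.50 and then 10.58, 10.66 and 10.28 without being called (1.41 ± 0.42, adjusted p = 0.0598). Its other probe set was called, at 0.97 (adjusted p = 0.00749 over all probe sets), and the first was called in 4 of the 16 alternative fits.

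Of 20 measured germline genes, 8 fell and 0 rose, against 1.29% of all genes called lower, and the list's median was -0.53. The count was 4 lower without replicate 3 of day 2 or replicate 1 or 2 of day 3, and 6 or 7 without the others. Many germline genes have CpG-rich promoters that DNA methylation silences in the embryo, and a known factor complex binds their E-box, the palindrome CACGTG. The start regions of 3 of the genes that fell and hold that word, and of 1 that fell without it, are given here to show where it lies. They run from 250 bases before to 50 bases after the transcription start in RefSeq (GRCm38.p6), on the gene's own strand, with CACGTG in capitals.

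Hormad1: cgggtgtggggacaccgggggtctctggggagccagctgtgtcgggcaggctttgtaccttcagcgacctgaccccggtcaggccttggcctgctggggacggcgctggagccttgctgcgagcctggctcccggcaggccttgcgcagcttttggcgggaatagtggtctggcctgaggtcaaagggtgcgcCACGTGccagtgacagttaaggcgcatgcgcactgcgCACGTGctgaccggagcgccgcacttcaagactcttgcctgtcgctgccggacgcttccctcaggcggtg
Mael: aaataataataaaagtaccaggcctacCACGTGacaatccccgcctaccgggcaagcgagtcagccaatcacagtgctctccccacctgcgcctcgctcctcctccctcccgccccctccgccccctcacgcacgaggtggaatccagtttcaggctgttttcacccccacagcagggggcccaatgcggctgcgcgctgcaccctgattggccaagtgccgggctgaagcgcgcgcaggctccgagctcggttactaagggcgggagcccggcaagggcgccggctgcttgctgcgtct
Taf7l: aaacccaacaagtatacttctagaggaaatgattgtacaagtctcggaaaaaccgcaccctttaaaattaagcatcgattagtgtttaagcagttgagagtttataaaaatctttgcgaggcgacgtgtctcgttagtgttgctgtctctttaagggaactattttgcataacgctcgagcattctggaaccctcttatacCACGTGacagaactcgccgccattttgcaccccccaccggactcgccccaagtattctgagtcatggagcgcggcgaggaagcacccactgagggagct
Tex19.1: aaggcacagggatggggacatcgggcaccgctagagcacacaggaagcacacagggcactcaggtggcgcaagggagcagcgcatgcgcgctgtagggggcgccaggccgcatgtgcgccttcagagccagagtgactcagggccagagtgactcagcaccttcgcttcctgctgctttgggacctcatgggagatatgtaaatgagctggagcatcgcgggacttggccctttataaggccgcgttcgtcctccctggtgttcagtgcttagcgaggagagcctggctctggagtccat

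These windows are chr3:95559427-95559726 (plus strand) for Hormad1, chr1:166238695-166238994 (minus) for Mael, chrX:134476441-134476740 (minus) for Taf7l and chr11:121145893-121146192 (plus) for Tex19.1. The first of the 2 listed windows is shown for Hormad1. The word was chosen after the Mael window had been seen, and contains ACGTG, the core of the hypoxia response element. It reads the same on both strands. It was present in 9 of the 15 germline list promoters that the table held (60.0%), against 1304 of 14452 promoters of all tested genes (9.02%). It was present in 4 of the 6 such genes that fell and in 5 of the 9 that were not called. Among all called genes the share was 7.07% of the promoters of those that rose and 12.97% of those that fell. A match is a description of the letters in the window, not a bound site.

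Hormad1, a protein of the meiotic chromosome axis, read 4.81, 5.15 and 7.0 at day 2 and 3.01, 3.14 and 3.49 at day 3, so the later level was at the floor of the array and replicate 3 was the high array of day 2 (-2.44 ± 0.47, adjusted p = 0.00501). Mael, a factor of the piRNA pathway that silences transposons, went from 8.17, 8.21 and 9.05 to 5.85, 5.68 and 7.17 (-2.24 ± 0.49, adjusted p = 0.0101). Tex19.1, which protects the germline from transposons, went from 9.26, 9.56 and 10.14 to 7.02, 7.15 and 7.75 (-2.35 ± 0.36, adjusted p = 0.00112). In none of these did the days overlap. Dmrt1, a sex-determination factor, fell from 9.38, 9.30 and 9.33 to 7.38, 7.63 and 7.87 (-1.71 ± 0.22, adjusted p = 0.000312). The RNA-binding Dazl and the meiotic Tex11 and Sycp1 fell by 1.16, 0.95 and 1.00, and Taf7l, a testis form of a TFIID subunit, by 0.81.

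On a list of 9 meiosis entry genes, Stra8, Sycp1 and Hormad1 fell (median -0.57), against 1.29% of all genes called lower. The germline list also holds Sycp1, Sycp3, Smc1b, Stag3 and Hormad1, so of these falls Stra8 alone is new. Stra8, which licenses meiosis, read 6.68, 6.99 and 7.14 and then 6.41, 6.32 and 6.38 (-0.57 ± 0.16, adjusted p = 0.0452). Hormad1, Tex19.1 and Dmrt1 were called without any 1 array. Mael lost its call without replicate 3 of day 2 or replicate 1 or 2 of day 3 (adjusted p up to 0.0873). Sycp1 lost its call without any 1 of the 6 arrays (up to 0.228), and Stra8 without any but replicate 1 of day 2 (up to 0.241).

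Of 10 measured genes that write or edit DNA methylation, 4 fell and 0 rose (median -0.35), against 1.29% of all genes called lower. Dnmt1, Dnmt3b and Uhrf1, which maintain or add the mark, differed by 0.23, 0.05 and 0.07 and were not called. Dnmt3a, a de novo methyltransferase, went from 11.49, 11.73 and 11.61 to 10.00, 10.10 and 10.77 (-1.32 ± 0.24, adjusted p = 0.00324), and 3 of its 5 probe sets were called, with the others at -0.34 and 0.42. Dnmt3l, its catalytically inactive partner, went from 9.67, 9.77 and 10.21 to 7.50, 7.72 and 8.45 (-1.99 ± 0.42, adjusted p = 0.00788). Gadd45a and Gadd45g, stress-induced genes also tied to demethylation, fell by 1.48 ± 0.31 and 2.02 ± 0.50. The list count was 1 without replicate 2 of day 3 and 2 without replicate 1 of day 3 or replicate 3 of day 2, where Dnmt3l had adjusted p = 0.0581, 0.053 and 0.0571. Gadd45a was lost without replicate 2 of day 3 (0.0639), and Gadd45g without replicate 1 or 3 of day 2 or replicate 1 or 2 of day 3 (up to 0.134). Dnmt3a kept its call without any 1 array.

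Of the 24 chromatin dioxygenases, the enzyme class that uses ascorbic acid, Phf2 alone was called, against 3.41% of all genes called higher. It rose by 0.86 ± 0.21 (adjusted p = 0.0232) on 1 of its 4 probe sets. That call was absent without replicate 2 or 3 of day 2 or replicate 1 or 2 of day 3 (up to 0.168). Tet1, which oxidises methylated cytosine, read 9.79, 9.75 and 10.09 at day 2 and 9.09, 8.85 and 9.47 at day 3, and its difference of -0.74 ± 0.23 was not called (adjusted p = 0.0787). It was called in 6 of the 16 alternative fits, among them the one without replicate 3 of day 3 (0.0459), and 2 of the other Tet1 probe sets were called, at -1.0 and -0.66 (adjusted p = 0.0166 and 0.0462 over all probe sets).

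Of 20 oxidative stress genes 3 fell and 0 rose, against 1.29% of all genes called lower, and the median was -0.30. Nqo1, a quinone reductase driven by the factor Nrf2, read 8.36, 7.93 and 9.20 at day 2 and 6.46, 6.53 and 7.28 at day 3 (-1.74 ± 0.33, adjusted p = 0.00443). Hmox1, heme oxygenase, read 8.70, 9.22 and 9.29 and then 7.60, 7.56 and 8.29 (-1.25 ± 0.25, adjusted p = 0.00647). Gsta4, a glutathione transferase, fell by 0.86 ± 0.15 (adjusted p = 0.00312). The days did not overlap for any of the 3. Without replicate 2 of day 3, Hmox1 had adjusted p = 0.0593 and the other calls held.

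**Figure D3:**
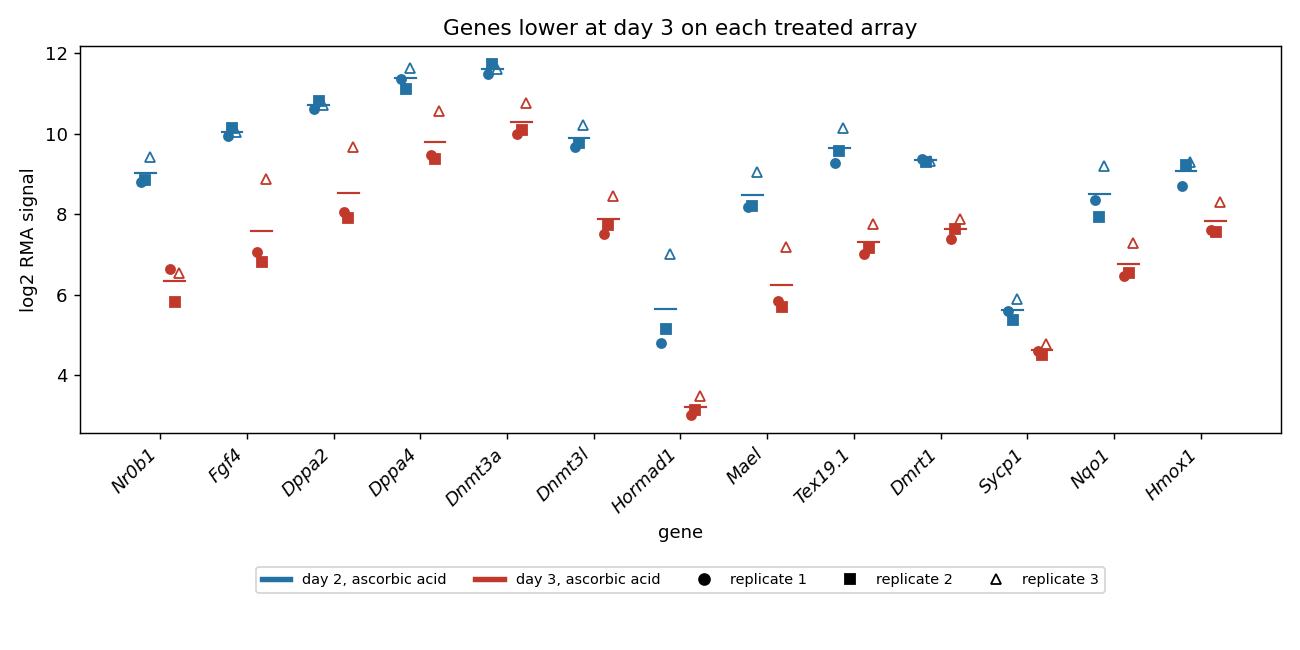
Log2 signal (y axis) of pluripotency, DNA methylation, germline and antioxidant genes (x axis) on each of the 6 treated arrays, with blue for day 2, red for day 3, a symbol for each replicate and bars at the group means. Every gene shown had day 3 values below its day 2 values. Replicate 3 of day 3 was the nearest to day 2 for most of them, Fgf4 and Dppa2 included, though not for Nr0b1.

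Large changes were not confined to signalling genes. The smallest p belonged to 1700013H16Rik, a clone-named gene singled out after its values were seen, with means of 3.54 at day 2 and 5.62 at day 3 (adjusted p = 3.81e-08). Its means were 2.92 in undifferentiated cells and 3.14 at day 5. Of these means, only that of day 3 stood above the floor of the array. Trh, the thyrotropin-releasing hormone precursor, rose from 9.02, 9.15 and 8.03 to 11.10, 11.12 and 10.77 (2.26 ± 0.27, adjusted p = 0.000214). With Foxa2 it was the call among 18 definitive endoderm and node genes (median 0.32), against 3.41% of all genes called higher. Without replicate 3 of day 3 the list had 4 calls, with Gsc and Lhx1 added. Without any other 1 treated array, Trh alone was called. Nefl, the light neurofilament subunit, rose by 2.44 ± 0.32 from 8.03, 7.39 and 7.95 to 10.42, 9.92 and 10.35. Rreb1, a zinc finger transcription factor, rose by 2.48 ± 0.42 on 1 of its 5 probe sets, and Tnfrsf19, a receptor of the TNF family, by 2.34 ± 0.30. Other Tnfrsf19 probe sets differed by 0.24 and 0.52 and were not called. Slc39a8, a metal ion transporter, rose by 2.54 ± 0.56, with another probe set at 0.07. The glutamate receptor gene Grik3 rose by 2.32 ± 0.52, with another probe set at -0.17. Slc39a8 and Grik3 lost their calls without replicate 3 of day 2 or replicate 1 or 2 of day 3, and Grik3 also without replicate 2 of day 2 (adjusted p up to 0.0939 and 0.0676).

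Among the falls, Wt1, a zinc finger factor of the urogenital ridge and mesothelium, read 7.74, 8.40 and 8.39 at day 2 and 5.22, 5.21 and 6.43 at day 3 (-2.56 ± 0.40, adjusted p = 0.00126). Its mean was 5.17 in undifferentiated cells, so its day 2 level was a transient high. Abcb1a, a drug efflux pump, went from 6.19, 6.59 and 7.38 to 3.82, 3.95 and 4.24, near the floor of the array (adjusted p = 0.00674). Its other probe set differed by -0.90. Aass, an enzyme of lysine breakdown, fell by 2.38 ± 0.41, and the zinc finger genes Zfp936 and Rex2 by 2.61 ± 0.49 and 2.50 ± 0.49. Rpl39l, a ribosomal protein gene expressed in testis, fell by 2.41 ± 0.52. Morc1, which represses transposons in the male germline, went from 8.58, 8.89 and 9.41 to 5.76, 6.52 and 7.20 (-2.47 ± 0.59, adjusted p = 0.0196). Mymx, a gene of muscle cell fusion, read 8.35, 6.69 and 9.25 and then 6.20, 5.57 and 5.40 (-2.37 ± 0.56, adjusted p = 0.0174). Without replicate 3 of day 2, Abcb1a, Morc1 and Mymx had adjusted p = 0.0553, 0.111 and 0.136. Without replicate 2 of day 3, Morc1, Mymx and Rpl39l had 0.0878, 0.0945 and 0.0639. Morc1 and Rpl39l were also lost without replicate 1 of day 3 (0.114 and 0.0767), Morc1 without replicate 2 of day 2 (0.0501), and Mymx without replicate 1 of day 2 or replicate 3 of day 3 (0.0629 and 0.0521).

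Several lists of later lineages held no calls, while the neuroectoderm list held some. None of 21 cardiac mesoderm genes, 22 cardiomyocyte genes, 22 blood and endothelium genes or 18 Hox genes was called, with medians of -0.08, -0.07, -0.08 and -0.03. At an unadjusted p under 0.05 in limma's test these lists held 5, 1, 4 and 1 genes, against 2994 of all 18193. For cardiac mesoderm the absence of calls rested on replicate 3 of day 3, without which 3 of the 21 genes were called higher (Mesp1, Pdgfra and Fgf10). The cardiac factor Nkx2-5 and the myosin gene Myh6 differed by -0.07 and -0.04. Of 18 neuroectoderm genes 3 rose and 1 (Gbx2) fell, against 3.41% and 1.29% of all genes. Fabp7, a lipid-binding protein of neural progenitors, rose by 1.53 ± 0.20, from 4.43, 4.76 and 4.38 to 6.21, 6.34 and 5.62. The intermediate filament gene Nes rose by 0.92 ± 0.18, while Sox1, an early neural factor, differed by -0.02. Another Sox1 probe set differed by -0.99 and was not called.

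The lists of markers of other cells the aggregates could hold had 1 call each, against 3.41% of all genes called higher and 1.29% lower. Of 20 extraembryonic endoderm genes Cubn alone fell (-1.21 ± 0.23), of 15 trophoblast genes Krt8 alone rose, and of 15 fibroblast and feeder genes Dcn alone fell (-0.89 ± 0.24). The mean level of the extraembryonic endoderm list ran from 7.10 to 7.20 at day 2 and from 7.10 to 7.27 at day 3, and that of the fibroblast list from 6.41 to 6.54 and from 6.48 to 6.77. Gata6 and Afp, defining genes of extraembryonic endoderm, differed by 0.42 and 0.64, and Cdx2 and Col1a1 by 0.12 and -0.06, without being called. Other Afp probe sets differed by -0.03 to 1.75 and were not called either. Krt8, a keratin of simple epithelia, read 8.59, 8.85 and 8.11 and then 10.26, 10.63 and 9.51 (1.62 ± 0.38, adjusted p = 0.0181). Krt8 and Dcn were not called without replicate 3 of day 2 or replicate 1 or 2 of day 3 (adjusted p up to 0.136 and 0.187), and Dcn also without either of the other day 2 arrays or replicate 3 of day 3.

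Snai2, a repressor of the epithelial state, fell from 5.63, 6.19 and 5.55 to 4.50, 4.88 and 4.49 (-1.17 ± 0.21, adjusted p = 0.00312) ahead of a mean of 10.78 at day 5, with another probe set at -0.32. Snai1 and Cdh1, at the centre of the epithelial to mesenchymal transition, differed by 0.44 and 0.14 and were not called. On the cell cycle list of 23 genes, Ccnd2, Cdkn1b and Mki67 rose (1.21, 1.12 and 0.78) and Ccne1 fell (-0.72 ± 0.13, adjusted p = 0.00341). Of all genes 3.41% were called higher and 1.29% lower. The other Cdkn1b probe set differed by 0.34 and was not called. Ccnd2 and Cdkn1b lost their calls without replicate 3 of day 2 or replicate 1 or 2 of day 3, and Cdkn1b also without replicate 1 or 2 of day 2 (up to 0.101 and 0.136).

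Of 19 lateral plate and paraxial mesoderm genes, Rspo3 rose and Wt1 and Tcf15 fell, against 3.41% and 1.29% of all genes. Without replicate 3 of day 3, 3 rose and 2 fell, with Cyp26a1 and Meis2 added. Wt1 alone was called without replicate 1 or 2 of either day, and Wt1 and Tcf15 without replicate 3 of day 2. Hspb1, a small heat shock protein gene, fell by 1.02 among 20 immediate early and heat shock genes, Gadd45a among 17 p53 targets, and Dhrs3, a retinaldehyde reductase, rose by 0.63 among 14 retinoic acid genes. None of 15 cholesterol synthesis genes or 21 amino acid response genes was called. At an unadjusted p under 0.05 in limma's test they held 1 and 4 genes, against 2994 of all 18193. Tcf15, Hspb1 and Dhrs3 lost their calls without replicate 2 of day 3 (adjusted p = 0.117, 0.182 and 0.21) and without replicate 1 of day 3 (0.0726, 0.121 and 0.0726) or replicate 1 of day 2 (0.0524, 0.0611 and 0.0528). Hspb1 and Dhrs3 also lost theirs without replicate 3 of day 2 (0.191 and 0.188), Tcf15 and Hspb1 without replicate 2 of day 2 (0.0695 and 0.0996), and Hspb1 without replicate 3 of day 3 (0.0636).

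A few genes were called on lists tied to the known chemistry of ascorbic acid, against 3.41% of all genes called higher and 1.29% lower. Of 17 collagen hydroxylase and crosslinking genes Serpinh1, a collagen chaperone, rose by 1.17 ± 0.27 (adjusted p = 0.0153), and P4ha1, a collagen prolyl hydroxylase, differed by 0.01. None of 22 collagen and matrix genes was called (median 0.00). At an unadjusted p under 0.05 in limma's test the list held 2 genes, against 2994 of all 18193. Of 26 hypoxia genes, Egln1, which encodes an oxygen-sensing prolyl hydroxylase, rose by 0.76 ± 0.20 and the glucose transporter gene Slc2a3 by 0.84 ± 0.23, while Pdk1 fell by 0.74 ± 0.19. Slc2a3 was also the only call among 10 genes of vitamin C transport and recycling, and Slc2a1 differed by 0.54. Without replicate 2 of day 3, Serpinh1, Egln1, Slc2a3 and Pdk1 had adjusted p = 0.125, 0.146, 0.176 and 0.158, and none of the 4 was called without replicate 1 of day 3 either. Without replicate 3 of day 2, Egln1, Slc2a3 and Pdk1 had 0.144, 0.264 and 0.0721. Without replicate 1 of day 2 Serpinh1 and Pdk1 had 0.0843 and 0.083, and without replicate 2 of day 2 Egln1 and Pdk1 had 0.123 and 0.074.

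**Figure D4:**
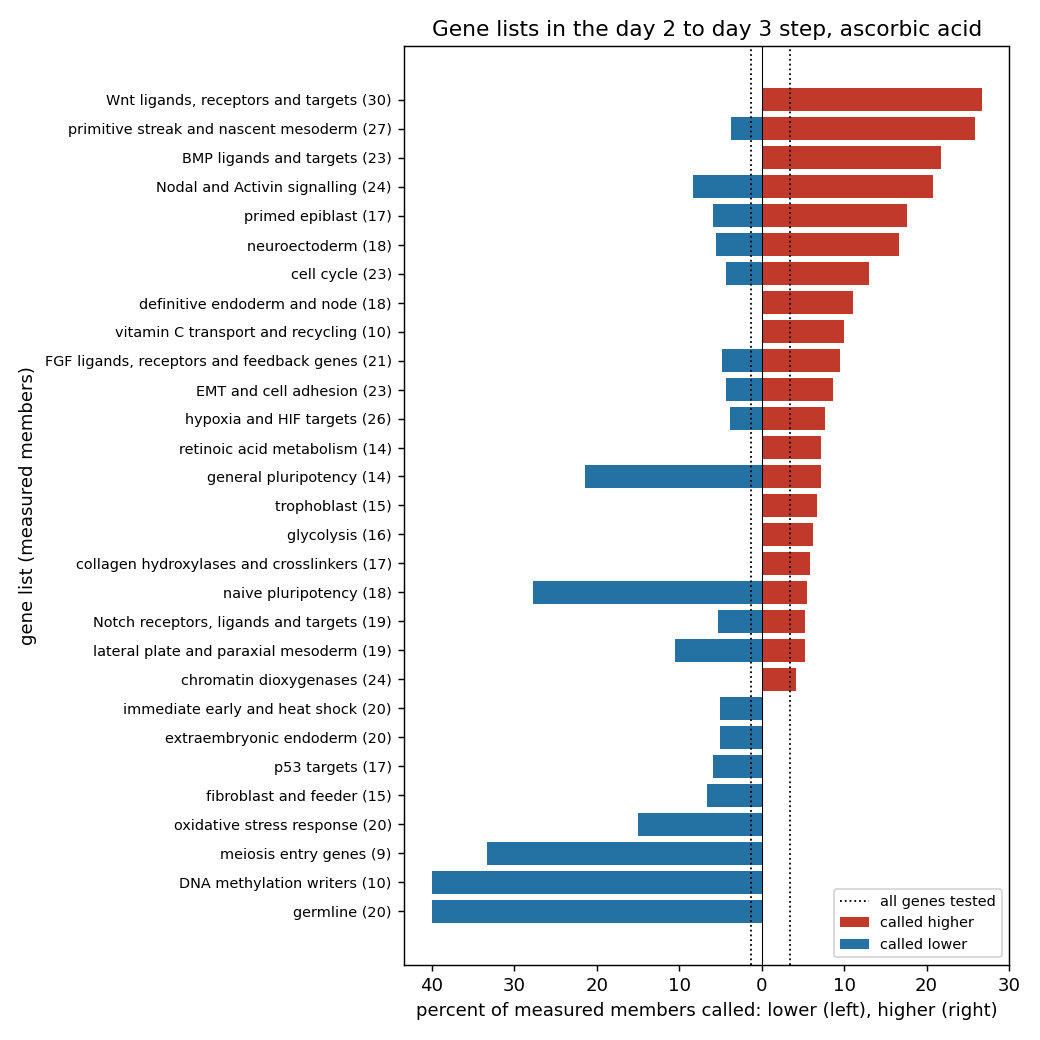
Percent of each list's measured members (number in brackets on the y axis) called lower (blue, left) or higher (red, right) at day 3 with ascorbic acid, for the lists with at least 1 call, with dotted lines at the 1.29% and 3.41% of all genes. The Wnt list (8 of 30) and the streak list (7 of 27) head the rises, and the germline list (8 of 20) and the DNA methylation list (4 of 10) the falls.

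The same step was measured without ascorbic acid, on control arrays that the treated step does not share. There 885 genes rose (4.86%) and 172 fell (0.945%), 1057 or 5.81% in all. The genes that rose in both arms numbered 441, which is 71.1% of those called with ascorbic acid and 49.8% of those called without. For falls the number was 78, or 33.3% and 45.4%. No gene was called in opposite directions. A call in 1 arm only does not show a difference between arms, and the difference itself was tested.

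No gene's step differed between the arms by limma's test of the difference (0 called, 0.0%; smallest adjusted p = 0.999, with 476 genes, 2.62%, at an unadjusted p under 0.05). Same-numbered treated and control arrays of a day deviated together, with correlations of 0.18, 0.22 and 0.30 at day 2 and 0.49, 0.46 and 0.68 at day 3. With these pairs as blocks the count was again 0 (smallest adjusted p = 0.0553, for Hormad1), with 1666 genes (9.16%) at an unadjusted p under 0.05. Leaving out the third day 2 pair gave 107 genes, 20 with a larger value for the treated step and 87 with a smaller one. Leaving out the first or second day 2 pair or the third day 3 pair gave 1, 8 and 2 genes.

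The streak genes Eomes, Fgf8 and Fst rose in both arms. The control step was 4.17 for Eomes, 3.62 for Fgf8, 3.27 for Fst and 1.94 for Nanog, against 4.64, 3.48, 3.39 and 1.91 with ascorbic acid. In the fit without pairs, the treated step minus the control step was 0.47 for Eomes (95% interval -0.80 to 1.74) and -0.14 for Fgf8 (-1.20 to 0.93). These intervals hold 0 as well as values on both sides of it, and they leave out the pairing of arrays. On the germline list 3 genes fell in the control step against 8 with ascorbic acid, and the medians were -0.35 and -0.53. Hormad1 fell by 2.44 with ascorbic acid, and its control difference was -0.90. As both arms ended at the floor of the array, these steps give no exact difference between arms. Its control arrays at day 2 read 3.99, 3.50 and 5.62 and overlapped the treated ones, with replicate 3 again the highest. For Dmrt1 the steps were -1.71 and -0.83, a difference of -0.88 (adjusted p = 0.115 in the paired test). Its means at day 2 were 9.34 with ascorbic acid and 8.20 without, and at day 3 they were 7.63 and 7.37. Nqo1 had a like pattern of means, with 8.50 and 7.37 at day 2 and 6.76 and 6.54 at day 3.

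Nkx1-2 rose by 1.82 with ascorbic acid, and its control difference was 0.77. The difference of 1.05 had a 95% interval of 0.38 to 1.73 in the fit without pairs and adjusted p = 0.0818 in the paired test. Glrx3, a monothiol glutaredoxin, was among the smallest unadjusted p for the arm difference, with -0.77 in the treated step and -0.05 in the control step (difference -0.73 ± 0.20). Plek2 rose by 0.78 in the treated step and differed by 0.00 in the control step, a difference of 0.78 ± 0.23. The values for Glrx3 and Plek2 also come from the fit without pairs. None of these differences passed the adjusted test, with or without pairs. In the treated step Plek2 had adjusted p = 0.0639 without replicate 2 of day 3.

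**Figure D5:**
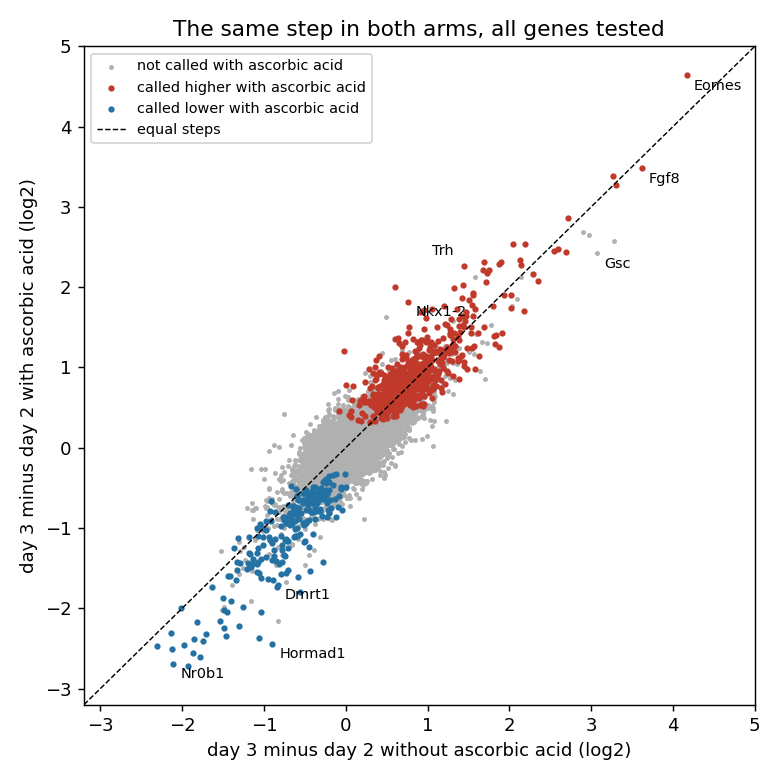
Each point is 1 of the 18193 genes, coloured where it was called with ascorbic acid, with its step without ascorbic acid on the x axis and its step with it on the y axis, both as log2 differences. Eomes and Fgf8 lie close to the dashed line of equal steps, while Hormad1 lies below it, at -0.90 and -2.44, with both of its day 3 groups at the floor.

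Over the time course, the step marked a peak for several genes and a way point for others. Mean levels of Eomes were 6.72 in undifferentiated cells, 7.11 and 11.75 at days 2 and 3 and 6.66 at day 5 with ascorbic acid. Fgf8 followed with 4.98, 5.97, 9.46 and 5.67, and Fst with 5.94, 7.82, 11.21 and 6.12. In contrast, Cdh11 read 4.24, 4.09, 7.37 and 10.70, Wls 6.60, 5.44, 7.98 and 9.90, and Krt8 8.10, 8.52, 10.13 and 12.99, so their day 5 means were the highest. Among genes that fell, Dppa2 read 10.98, 10.71, 8.53 and 3.78 and Dnmt3l 11.06, 9.88, 7.89 and 5.72, each lower at every later stage. These are levels set side by side, with the day 3 arrays shared between steps.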

How the data were processed

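Total RNA of 21 samples in 7 groups of 3 was measured on Affymetrix arrays. The authors deposited log2 signals, which the submitters' processing notes credit to RMA (not given in the sources used here: its version). The number of arrays limits the precision. The table held 45101 probe sets, 34958 with 1 gene symbol in the platform annotation, 932 with several and 9211 with none, and 34754 matched RefSeq by Entrez identifier. Each of 18193 genes took its probe set with the highest mean. Other probe sets of a gene are given for some of the named genes only. A group-means model on all arrays was fitted with limma 3.58.1 in R 4.3.3 (lmFit, eBayes with an intensity trend, Benjamini-Hochberg over all genes) and tested on simulated data.

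Members, 36 gene lists and tests were chosen with earlier results of these data known. Named genes were the 12 largest called rises and falls whose groups did not overlap, up to 4 called members of each list, 30 marker genes and the 10 lowest p for the arm difference; clone names were left out. Others were named for their list or after their values were seen, and any p-values given for the latter are a description only. Same-numbered treated arrays of days 2 and 3 were not treated as pairs (deviation correlations 0.02, 0.09 and 0.13); treated and control arrays of a day were, as a check. Promoters came from RefSeq, matched by gene for 14452 genes.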

Additional observations from a re-analysis of the deposited data

How the results depend on the processing

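Leaving out 1 array at a time gave 217 to 874 calls with ascorbic acid, against 854 over all, and 258 to 1054 without it, against 1057. The lowest control counts were 258, 435 and 560, without replicate 2 or 1 of day 3 and replicate 3 of day 2. The arm difference, with pairs left out in turn, had 0 to 107 calls (1, 8 and 107 without the day 2 pairs and 2 without the third day 3 pair). Fitting only the 6 treated arrays gave 1711 calls, array quality weights 2074 (and 5014 in the controls), the replicate number as a block within the 6 treated arrays 2004 and across all groups 1239. A difference of at least 1 on the log2 scale left 283. Without the number 3 arrays of days 2 and 3, an alternative chosen after seeing the data, the counts were 572 with and 604 without ascorbic acid. Counts under a renewed quantile normalisation (844), centring on the array median (746), a filter on dim genes (876), the most variable probe set (991) and no intensity trend (865) stayed within 1.5 times. The arm difference had 0 calls in its unpaired alternatives and with the pairs as a replicate block. Of 76 named genes called with ascorbic acid, 30 kept the call in all 16 alternative fits, 46 lost it in at least 1, and 0 changed direction. Among named genes not called, Mixl1, Gsc and Tet1 were called in 6 of the 16, Fgf5 and Pdgfra in 4, Afp in 3, Mesp1, Sox2 and Otx2 in 2, and Snai1 and Gata6 in 1. With 3 arrays a group, the median standard error was 0.143 for the treated step. For the arm difference it was 0.202 without pairs and 0.158 with them.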

Other observations

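The genes below were picked after their values had been seen. Their adjusted p-values and calls come from the test over all genes and are a description, not support. Some genes known from the germline were called in the treated step without being on the germline list. Tdrd12, a Tudor-domain protein of the piRNA pathway, read 8.19, 7.79 and 8.59 at day 2 and 5.96, 6.30 and 6.36 at day 3 (-1.98 ± 0.39, limma adjusted p = 0.00555). Sohlh2, a germ cell transcription factor, read 8.03, 8.47 and 8.34 and then 7.04, 7.08 and 7.41 (-1.10 ± 0.20, adjusted p = 0.00336). Both calls held without any 1 treated array. Others looked at in the same way lost theirs. Gtsf1l (-1.42) was lost without 3 of the 6 arrays when each was left out in turn, Gtsf1 (-1.34), Slc25a31 (-2.04) and Aurkc (-1.11) without 4, Syce1 (-1.15) without 5, and Hsf2bp (-1.51) and Ooep (-1.24) without 6.

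Among other genes, which form no list, Map2, a microtubule protein of neurons, read 4.62, 4.57 and 4.19 at day 2 and 6.08, 6.24 and 6.21 at day 3 (1.72 ± 0.23, adjusted p = 0.000399), and Nrcam, a neural adhesion molecule, read 6.76, 6.28 and 5.32 and then 8.55, 8.30 and 8.36 (2.28 ± 0.42, adjusted p = 0.00372). Dsp, the desmosomal protein desmoplakin, read 6.80, 7.31 and 6.31 and then 9.23, 9.62 and 8.10 (2.18 ± 0.37, adjusted p = 0.00237). Irs1, an adaptor of insulin signalling, read 6.58, 6.41 and 5.65 and then 8.58, 8.76 and 8.23 (2.31 ± 0.28, adjusted p = 0.000214). The Wnt receptor gene Ror2 rose by 1.52 ± 0.27 (adjusted p = 0.00312). These calls held without any 1 treated array, and the control steps of Map2, Nrcam, Dsp, Irs1 and Ror2 were 0.95, 1.87, 1.73, 1.90 and 1.38. Of genes looked at with them, Dsc2 (1.35) lost its call without 1 of the 6 arrays, Insr (1.24) without 2, Cxcl12 (1.78) without 3, and Ank3 (1.19), Ghr (1.41) and Kit (1.13) without 5. On the fixed neuroectoderm list Tubb3 and Ncam1, further neuronal genes, differed by -0.36 and -0.07 and were not called.

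Octamer words (ATTTGCAT on either strand) stood in the promoters of 10 of 185 genes that fell (5.41%), of 5 of 481 that rose (1.04%) and of 215 of 14452 tested genes (1.49%). The holders among the genes that fell included Zfp42, Gadd45a, Gadd45g and Dll1. No test was run on these shares.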
